A study of Homo sapiens with 12 samples.

Results

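Mitochondrial ribosomal proteins were examined in human liver spheroid co-cultures exposed to total parenteral nutrition (TPN). The members were all genes of the expression table whose symbol starts with MRPL or MRPS followed by a number. This gave 78 of 16705 genes, and all 78 passed the filter on low values. By name, 49 MRPL genes point to the large subunit and 29 MRPS genes to the small subunit. Not every MRPS protein sits there, as described below. Each spheroid held 2 established human cell lines. C3A descends from the liver tumour line HepG2 and stands for hepatocytes. LX-2 stands for stellate cells, the vitamin A storing cells that turn into matrix producers in an injured liver. Spheroids were left untreated or given TPN, each for 24 h or 144 h, which made 4 groups of 3 libraries. TPN was added at 1% as a clinical mixture of amino acids, glucose, lipid emulsion, electrolytes, trace elements and vitamins. All groups shared the same medium and the same lines, each library was made from pooled spheroids, and exposure began after the same period of spheroid formation, so the 144 h cultures were also older. The paper states that its sequencing data came from 3 independent experiments. The labels do not say what a replicate number stands for, so p-values measure the spread between these libraries.

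Mitochondria carry their own ribosome, the mitoribosome, which makes the few proteins still encoded by mitochondrial DNA. Those proteins are core subunits of the respiratory chain and of ATP synthase. All protein parts of the mitoribosome are encoded in the nucleus, made in the cytosol and imported. Some have a counterpart in the bacterial ribosome, and others arose in mitochondria. In liver, oxidative phosphorylation supplies the ATP for urea synthesis and gluconeogenesis.

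The labelled cell types were checked against their markers. Summed FPKM of 10 hepatocyte markers lay between 16900 and 20400 in all libraries. The sum hides changes of single markers, as 5 of the 10 were lower with TPN at 24 h (median log2 fold change -0.14). At 144 h 7 were lower (median -0.31), with none called higher at either time in limma. Of all genes tested, 5.46% were lower with TPN at 24 h and 28.3% at 144 h. ALB, which encodes albumin, had a log2 fold change of -0.65 and HNF4A, a master regulator of hepatocytes, of -0.35 with TPN at 144 h. Summed FPKM of 10 stellate markers was 137 to 145 in untreated 24 h, 122 to 125 in TPN 24 h, 75.7 to 80.6 in untreated 144 h and 70.5 to 73.0 in TPN 144 h libraries. At 144 h this sum was mostly ACTA2 and SPARC. Of the 8 stellate markers tested, 5 were lower with TPN at 144 h, beside 28.3% of all genes tested. Their median log2 fold change was -0.73, and the collagen genes COL1A1 (-1.25) and COL3A1 (-1.40) were among the lower ones, at low levels. In bulk samples, fewer cells of a type and less RNA per cell cannot be told apart.

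The members spanned a 27.5-fold range of levels. Their median was 39.1 FPKM over all libraries, against 11.1 FPKM over all genes tested. FPKM is per transcript length, so these levels can be compared between genes, unless reads are shared with other genes or copies. RefSeq lists named pseudogenes for 42 members, among them MRPL42 with 6 and MRPS33 with 4. In GENCODE v44, 29 members overlap another protein-coding gene. Highest were MRPL23 with 132 FPKM, MRPL12 with 126 FPKM and MRPS26 with 119 FPKM. MRPL23 sits at the mouth of the exit tunnel of the large subunit, MRPL12 forms the stalk that recruits translation factors, and MRPS26 is a small-subunit protein specific to mitochondria. Lowest were MRPS33 with 4.78 FPKM, MRPL42 with 5.59 FPKM and MRPS14 with 8.33 FPKM. The median coefficient of variation among the 3 libraries of a group was 3.02% to 4.53%.

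The members differed most between the culture times. In untreated spheroids the summed FPKM of the 78 members was 4268.2 ± 19.6 (SD, n = 3) at 24 h and 3218.1 ± 36.3 (SD, n = 3) at 144 h, a fall of 24.6%. No library of one time reached the range of the other. With TPN the sum was 4278.2 ± 12.8 (SD, n = 3) at 24 h and 2990.9 ± 70.3 (SD, n = 3) at 144 h. As a share of all FPKM, the members took 0.755% and 0.752% at 24 h, then 0.563% in untreated and 0.518% in TPN libraries at 144 h.

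**Figure D1:**
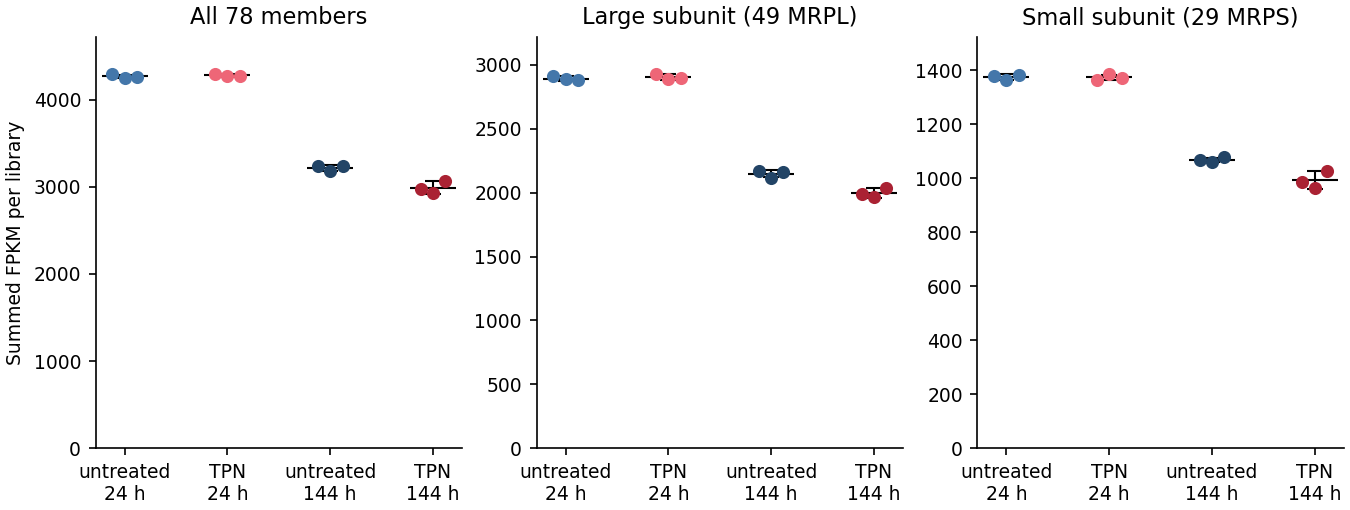
Summed FPKM per library (y axis, from 0) of all 78 members, the 49 MRPL genes and the 29 MRPS genes in the 4 groups (x axis). Points are libraries, and the horizontal mark and bar are the mean and SD of 3 libraries. The 24 h groups lie together, and TPN 144 h libraries lie below untreated 144 h libraries.

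In untreated spheroids, 71 of 78 members were lower at 144 h than at 24 h by limma at an adjusted p below 0.05, and 1 was higher. Of all genes tested, 52.4% were lower and 20.1% were higher, beside 91.0% of the members that were lower. The median log2 fold change was -0.42 over the members and -0.18 over all genes tested. For 72 members every 144 h library lay below every 24 h library, which held for 53.7% of all genes tested. Of the 49 MRPL genes 44 fell and 1 rose, with a median of -0.47. Of the 29 MRPS genes 27 fell, with a median of -0.35. Members with a bacterial counterpart had a median of -0.42 and those specific to mitochondria of -0.43.

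The size of the fall depended on the scaling, while the sign of the members' median did not. After scaling by the median ratio to a reference library, 57 members were lower and 5 higher with a median of -0.25, beside 33.7% of all genes tested that were lower and 33.1% higher, and the median of all genes went from -0.18 to -0.0078. After quantile normalisation, 59 were lower and 5 higher, beside 37.9% of all genes tested lower and 29.1% higher. Higher under both scalings were MRPL10, MRPL2, MRPL42, MRPL45 and MRPS5, of which only MRPL10 was called in the values as deposited. Among all genes called, 27.8% were higher as deposited, 49.6% after median-ratio scaling and 43.4% after quantile normalisation. Relative to the median of all genes, the members stood at -0.24 as deposited and between -0.29 and -0.21 over all alternatives.

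**Figure D2:**
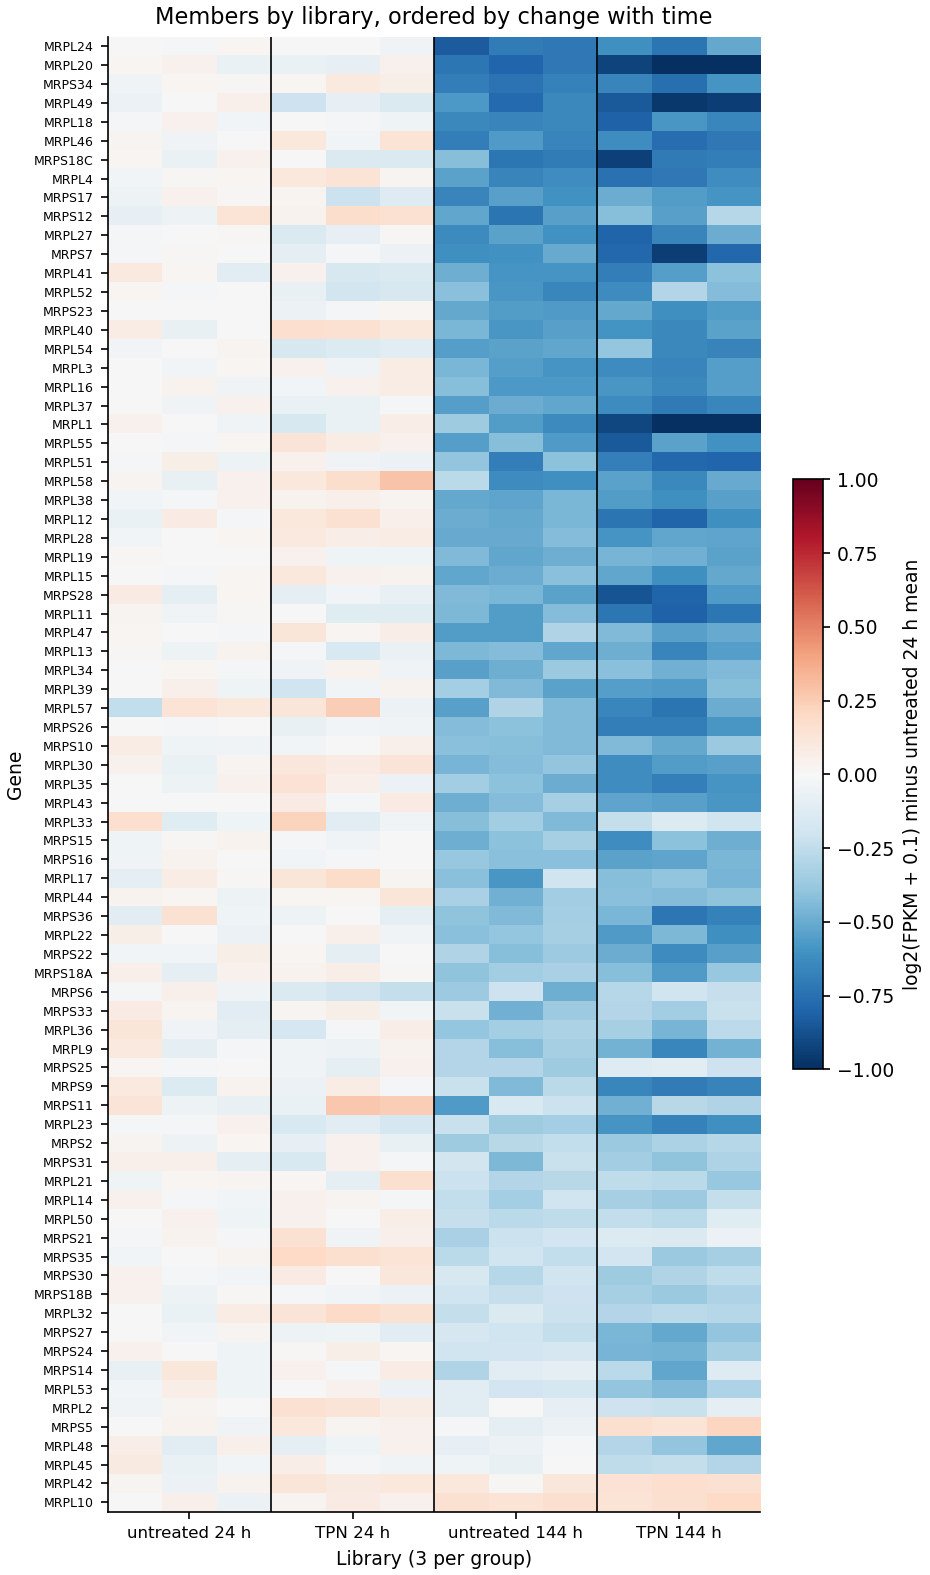
Each row is a member and each column a library, and colour gives log2(FPKM + 0.1) minus the mean of the untreated 24 h libraries, saturating at 1.00 in size. Rows are ordered by the change with time in untreated libraries, from MRPL24 at the top to MRPL10 at the bottom, and nearly all rows are blue in both 144 h groups.

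The 11 members past the threshold of the study (a log2 fold change above 0.58 in size) were all lower at 144 h. Of all genes tested, 12.2% passed it downwards and 19.0% in either direction. The 11 members were MRPL24, MRPL20, MRPS34, MRPL49, MRPL18, MRPL46, MRPS18C, MRPL4, MRPS17, MRPS12 and MRPL27. This count rests on the scaling. None of the members passed the threshold after median-ratio scaling or after removal of trends with GC content and length, and only MRPL20 did after quantile normalisation, beside 5.46%, 6.63% and 6.68% of all genes tested that passed it downwards. With a pseudocount of 1 it was passed by 9 members, and without single libraries by 9 to 13, of which 9 to 11 were among those named.

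MRPL24 (chr1:156737303-156741267, GRCh38.p13), a large-subunit protein next to the exit tunnel, had 54.2, 53.6 and 55.2 FPKM in untreated 24 h libraries. At 144 h its untreated libraries had 30.5, 33.5 and 33.2 FPKM. The groups did not overlap, and the log2 fold change was -0.75 ± 0.049 (SE), or -40.4%, with an adjusted p of 1.34e-08 in limma. MRPL20 (chr1:1401909-1407293), whose bacterial relative is needed early in assembly of the large subunit, had 129.7, 131.8 and 122 FPKM in untreated 24 h libraries. At 144 h it had 77.4, 73.7 and 77.8 FPKM, without overlap and with a log2 fold change of -0.74 ± 0.062 (SE).

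MRPS34 (chr16:1771855-1773134), a small-subunit protein specific to mitochondria, had 90.4, 93.8 and 92.9 FPKM in untreated 24 h and 57.1, 55.3 and 57.6 FPKM in untreated 144 h libraries. Its log2 fold change was -0.70 ± 0.039 (SE), with no overlap of the groups. MRPL49 (chr11:65122183-65127371), a large-subunit protein specific to mitochondria, had 41.5, 43.4 and 44.8 FPKM in untreated 24 h and 29.1, 25.2 and 27.6 FPKM in untreated 144 h libraries. Here too the groups were apart, with a log2 fold change of -0.66 ± 0.054 (SE). In GENCODE v44, EME2 overlaps MRPS34, SYVN1 overlaps MRPL49 and ABRAXAS1 overlaps MRPS18C on the opposite strand, and NIPSNAP2 overlaps MRPS17 on the same strand, so reads may have been divided between them.

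The other 7 fell between -0.65 (MRPL18) and -0.59 (MRPL27). MRPL18 belongs to the central protuberance, MRPL4 lines the exit tunnel and MRPL27 reaches towards the peptidyl transferase centre. MRPL46 is a mitochondria-specific part of the central protuberance. In the small subunit, MRPS12 belongs to the decoding centre, MRPS17 binds the ribosomal RNA directly and MRPS18C belongs to the platform. Mean FPKM of MRPL18 went from 90.0 ± 2.32 (SD, n = 3) to 57.3 ± 0.26 (SD, n = 3), and that of MRPS12 from 46.9 ± 3.97 to 31.0 ± 2.43. RefSeq lists 6 pseudogenes each for MRPS17 and MRPS18C, with which reads may be shared. The other 60 members that fell had log2 fold changes between -0.57 (MRPS7) and -0.16 (MRPL53).

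MRPL10 (chr17:47823272-47831541), the protein on which the MRPL12 stalk is built, was the only member that was higher. It had 61.0, 63.0 and 58.3 FPKM in untreated 24 h and 67.5, 66.9 and 67.9 FPKM in untreated 144 h libraries. The groups were apart, with a log2 fold change of 0.15 ± 0.032 (SE) and an adjusted p of 0.000733 in limma. Its partner in the stalk, MRPL12, went the other way, with means of 149 ± 7.79 (SD, n = 3) and 106 ± 1.9 (SD, n = 3) FPKM and a log2 fold change of -0.49 ± 0.047 (SE). The other 6 members without a call were MRPL2, MRPL42, MRPL45, MRPL48, MRPS5 and MRPS14. MRPL45 docks the ribosome at the inner membrane, and MRPL2 lies close to the peptidyl transferase centre.

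Promoter sequences were read from RefSeq (GRCh38.p14), in which 70 of 78 members had an entry. Letters bound by known regulators of mitochondrial genes were searched on both strands in the 250 bases before each start, and no string contains another. The string CCGGAAG, bound by ETS factors such as GABPA, was found in 25 of the 70 members (35.7%). It was found in 19.8% of the other genes tested and in 10.2% of all genes with a promoter entry. GCGCATGCG, bound by NRF1, was found in 4.29% of members, in 3.91% of the other genes tested and in 2.02% of all. AAGATGGCG, bound by YY1, was found in 4.29%, 1.42% and 0.784%. GGGCGG, bound by SP1, was found in 57.1%, 75.2% and 46.2%, and the E-box CACGTG in 12.9%, 11.3% and 7.73%. A match is a description of letters and not of binding.

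Of the 11 members with the strongest fall, 6 held the ETS letters, and stretches before their starts are shown as examples of these letters. The 6 were chosen by their fall over time, so that they share it is no result, and with TPN at 144 h their log2 fold changes ran from -0.30 (MRPL20) to 0.18 (MRPS12). Each is written 5′ to 3′ on the strand of its gene, and capitals mark CCGGAAG or its reverse complement CTTCCGG, and for MRPS18C also GCGCATGCG. All but that of MRPS18C end at the base before a start. Some members have several starts (86 windows for the 70 members), and each stretch comes from a window with the letters. MRPL18 has further starts whose windows do not hold the ETS letters, and MRPS12 also has such a start.
MRPL20, chr1:1407294-1407393, minus strand: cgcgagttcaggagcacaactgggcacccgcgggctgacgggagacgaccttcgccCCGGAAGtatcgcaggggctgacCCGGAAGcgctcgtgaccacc
MRPS34, chr16:1773135-1773234, minus strand: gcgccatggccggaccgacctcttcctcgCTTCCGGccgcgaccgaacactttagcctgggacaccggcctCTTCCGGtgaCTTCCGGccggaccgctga
MRPL18, chr6:159790367-159790466, plus strand: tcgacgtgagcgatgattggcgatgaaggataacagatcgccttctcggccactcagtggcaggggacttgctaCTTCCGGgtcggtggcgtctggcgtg
MRPL27, chr17:50373185-50373284, minus strand: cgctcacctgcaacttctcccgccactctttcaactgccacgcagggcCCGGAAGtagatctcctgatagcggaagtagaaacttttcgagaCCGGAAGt
MRPS12, chr19:38930854-38930953, plus strand: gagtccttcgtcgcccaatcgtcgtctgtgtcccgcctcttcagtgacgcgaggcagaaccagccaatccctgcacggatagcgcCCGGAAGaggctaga
MRPS18C, chr4:83455816-83455940, plus strand: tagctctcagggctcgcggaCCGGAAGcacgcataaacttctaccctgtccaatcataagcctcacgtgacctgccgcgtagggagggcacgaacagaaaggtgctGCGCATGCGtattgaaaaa

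In the values as deposited, the 25 members with the ETS letters had a median log2 fold change with time of -0.50, and 24 of them fell. The 45 members without them had a median of -0.39, and 41 fell, beside a median of -0.18 and 52.4% lower over all genes tested. The ranges overlapped (-0.74 to -0.05 and -0.75 to 0.08), and MRPL24, with the strongest fall, did not hold the letters in this window. The same split was not made for the other genes tested or under another scaling. Whether the difference is particular to the members was therefore not tested.

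After 24 h of TPN, few members differed from untreated spheroids. By limma 2 were higher and 1 was lower, whereas 5.04% of all genes tested were higher and 5.46% lower. Groups did not overlap for 12 members upwards and 7 downwards, against 13.9% and 15.9% of all genes tested. The median log2 fold change was 0.0057, with a range of -0.19 to 0.19. All 78 intervals (95% confidence) lay within 0.58 in size, while 0.914% of all genes tested passed the threshold of the study.

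MRPS35 (chr12:27710773-27756295), a small-subunit protein specific to mitochondria, had 62.5, 63.6 and 65.0 FPKM in untreated and 72.9, 71.1 and 70.0 FPKM in TPN libraries at 24 h. TPN libraries were all higher, with a log2 fold change of 0.16 ± 0.042 (SE) and an adjusted p of 0.0223 in limma. MRPL32 (chr7:42932376-42937857), whose maturation by a mitochondrial protease gates ribosome assembly, had 42.0, 40.4 and 44.4 FPKM in untreated and 46.1, 48.3 and 47.0 FPKM in TPN libraries. It too did not overlap, with a log2 fold change of 0.16 ± 0.038 (SE) and an adjusted p of 0.0171 in limma.

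MRPL23, the member with the highest level, was lower at both times. At 24 h it had 154.5, 154.2 and 160.8 FPKM in untreated and 140.6, 145 and 139.2 FPKM in TPN libraries, with a log2 fold change of -0.14 ± 0.037 (SE) and an adjusted p of 0.0235 in limma. At 144 h it had 134.2, 122.2 and 123.9 FPKM in untreated and 103.8, 98.0 and 102.5 FPKM in TPN libraries, with a log2 fold change of -0.32 ± 0.037 (SE) and an adjusted p of 7.83e-06 in limma. No TPN library reached the untreated range at either time. The calls of MRPS35, MRPL32 and MRPL23 at 24 h were each lost without some single libraries of the 24 h groups, with adjusted p up to 0.0872, 0.0804 and 0.0956 by limma. The libraries were untreated 24 h replicates 1 and 2 and TPN 24 h replicates 1 and 2 for MRPS35, untreated 24 h replicates 1 and 2 and TPN 24 h replicate 2 for MRPL32, and untreated 24 h replicate 3 and TPN 24 h replicates 1 and 3 for MRPL23. With no trended prior the calls of MRPS35 and MRPL23 at 24 h were lost, and after removal of trends with GC content and length that of MRPL23 was lost.

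**Figure D3:**
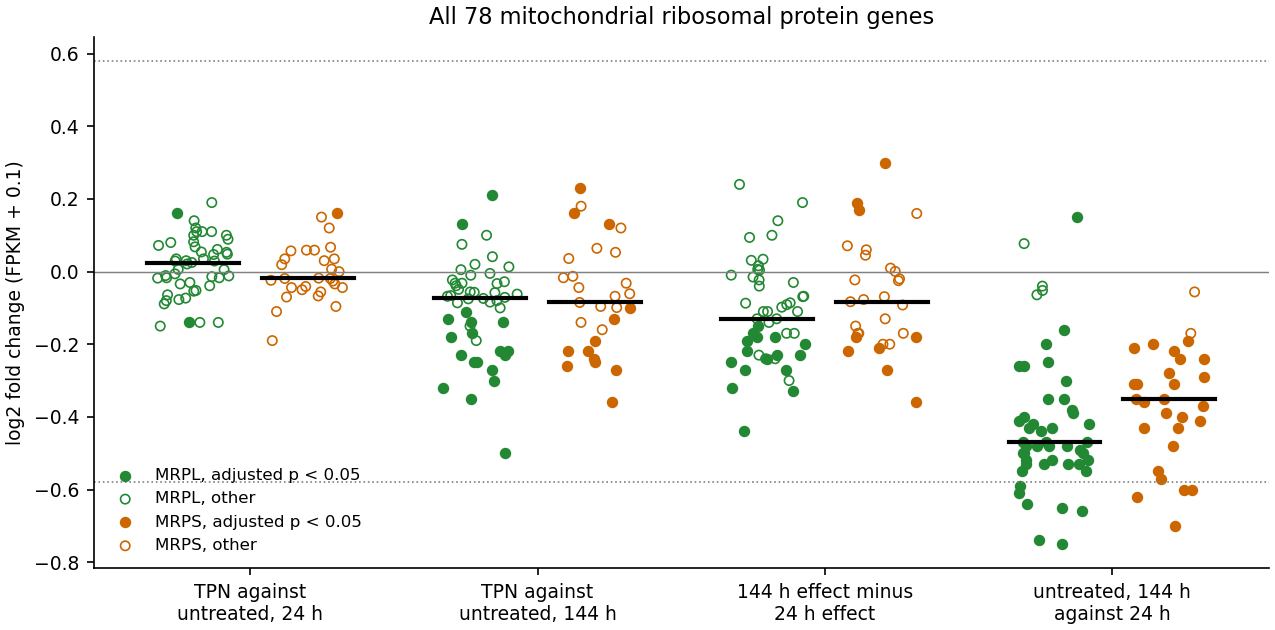
Log2 fold change (y axis) of each of the 78 members in the 4 comparisons (x axis), MRPL in green and MRPS in orange. Filled points have an adjusted p below 0.05 in limma, black bars are medians and dotted lines mark 0.58 in size. Only the comparison of untreated 144 h with untreated 24 h has points past the dotted lines.

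After 144 h of TPN, 27 members were lower and 5 higher than in untreated spheroids of the same age by limma. Of all genes tested, 28.3% were lower and 24.2% higher, so the 34.6% of members that fell lay near the share of all genes. The members that rose were 6.41%. The groups were apart for 28 members downwards and 5 upwards, against 30.2% and 27.2% of all genes tested. The median log2 fold change was -0.074 over the members and -0.018 over all genes. The summed FPKM of the members dropped by 7.06% with TPN, and so did the sums of the MRPL and of the MRPS genes. No member passed the threshold of the study, which 9.48% of all genes tested did, the largest change in size being -0.50. The 95% confidence interval stayed within 0.58 in size for 77 members.

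The exception was MRPL1 (chr4:77861768-77952790), the protein of the mobile stalk where tRNA leaves the large subunit. It had 19.6, 17.0 and 16.2 FPKM in untreated and 13.4, 11.5 and 12.3 FPKM in TPN libraries at 144 h. All TPN libraries were lower, with a log2 fold change of -0.50 ± 0.075 (SE), a 95% interval of -0.66 to -0.34 and an adjusted p of 8.31e-05 in limma. MRPS9 (chr2:105037469-105099960), which reaches towards the tRNA in the small subunit, had 31.7, 27.3 and 30.7 FPKM in untreated and 23.5, 22.7 and 23.3 FPKM in TPN libraries. The groups were apart, with a log2 fold change of -0.36 ± 0.063 (SE) and an adjusted p of 0.00028 in limma.

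MRPL48 (chr11:73787874-73865133), a mitochondria-specific part of the central protuberance, had 15.3, 15.6 and 16.01 FPKM in untreated and 13.2, 12.3 and 11.3 FPKM in TPN libraries. TPN libraries were all lower, with a log2 fold change of -0.35 ± 0.062 (SE) and an adjusted p of 0.000307 in limma. In untreated spheroids MRPL48 was not called over time, with a log2 fold change of -0.052 ± 0.062 (SE). MRPL2 and MRPL45, likewise without a call over time, were also among the 27 that fell with TPN. MRPL45 had 54.0, 52.6 and 55.4 FPKM in untreated and 46.5, 46.9 and 45.3 FPKM in TPN libraries at 144 h, with a log2 fold change of -0.22 ± 0.041 (SE).

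Besides MRPL1, MRPS9, MRPL48 and MRPL23, the other 23 members that fell had log2 fold changes between -0.30 (MRPL20) and -0.10 (MRPS16). MRPS26, the small-subunit member with the highest level, had 105.5, 106.9 and 104.7 FPKM in untreated and 88.3, 88.4 and 94.9 FPKM in TPN libraries. Its groups were apart, with a log2 fold change of -0.22 ± 0.03 (SE) and an adjusted p of 3.07e-05 in limma. The 46 members without a call lay between -0.19 and 0.18.

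MRPS5 (chr2:95084862-95149434), at the entry of the messenger RNA in the small subunit, had the largest increase. It had 18.5, 17.6 and 18.1 FPKM in untreated and 21.0, 20.7 and 21.8 FPKM in TPN libraries at 144 h, all TPN libraries being higher. Its log2 fold change was 0.23 ± 0.038 (SE), with an adjusted p of 0.000201 in limma, and it stayed called without any single library (adjusted p up to 0.00141 over all alternatives). MRPL33 (chr2:27771719-27779734), a small large-subunit protein of bacterial origin, had 85.2, 90.0 and 84.6 FPKM in untreated and 97.1, 104.5 and 99.8 FPKM in TPN libraries. Its log2 fold change was 0.21 ± 0.079 (SE), with an adjusted p of 0.0361 in limma. In GENCODE v44, MRPL33 overlaps BABAM2 on the same strand and RBKS on the opposite strand, and MRPS25 overlaps NR2C2 on the opposite strand.

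MRPS25 (chr3:15042251-15065315), specific to mitochondria, had 8.32, 8.32 and 7.94 FPKM in untreated and 9.31, 9.39 and 8.81 FPKM in TPN libraries at 144 h. These did not overlap, with a log2 fold change of 0.16 ± 0.047 (SE) and an adjusted p of 0.0114 in limma. MRPL24, with the strongest fall over time, had 35.6, 32.8 and 38.2 FPKM with TPN against 30.5, 33.5 and 33.2 FPKM, and these groups overlapped. Its log2 fold change was 0.13 ± 0.049 (SE) with an adjusted p of 0.0407 in limma, and ran from 0.076 to 0.19 without single libraries. MRPS21 was the fifth that rose, with a log2 fold change of 0.13 ± 0.048 (SE), and RefSeq lists 9 pseudogenes of it. Its call was also lost in a fit with 1 library left out, where only 2 members were still higher (MRPS5 and MRPS25). Without single libraries the call of MRPL33 was lost with adjusted p up to 0.111 (untreated 144 h replicate 1 or 3, or TPN 144 h replicate 2 or 3). That of MRPL24 was lost with adjusted p up to 0.188 (untreated 144 h replicate 1, TPN 144 h replicate 1 or 3, untreated 24 h replicate 1, or TPN 24 h replicate 1 or 2). The calls of MRPL33 and MRPL24 were also lost with no filter on low values, with no trended prior and after removal of trends with GC content and length, those of MRPL24 and MRPS21 with equal totals, that of MRPS21 with no filter or no trended prior, and that of MRPL24 with only the 2 groups in the fit.

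**Figure D4:**
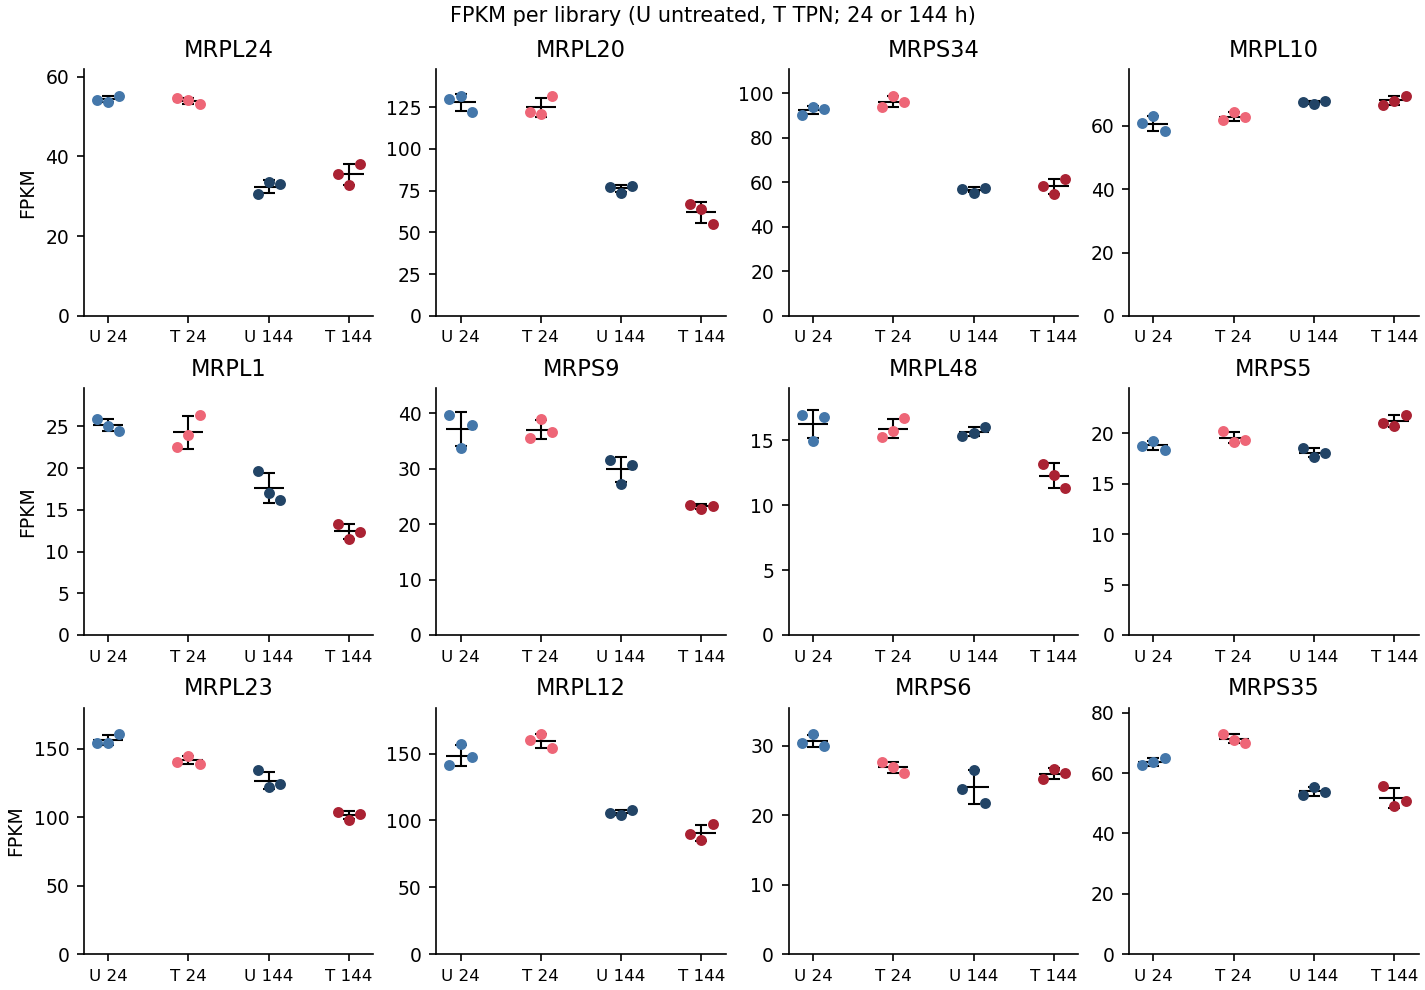
FPKM per library (y axis, from 0) of 12 named members in the 4 groups (x axis, U untreated and T TPN, with hours). Points are libraries, and the mark and bar are the mean and SD of 3 libraries. MRPL24, MRPL20 and MRPS34 are lower at 144 h in both groups, MRPL10 is not, and MRPL1, MRPS9, MRPL48 and MRPL23 are lower with TPN at 144 h.

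Whether the TPN effect differed between the times was tested as an interaction in limma. The effect was lower at 144 h than at 24 h in 22 members and higher in 3, where 16.3% of all genes tested were lower and 14.1% higher. The share of members that were lower was 28.2%, and the median was -0.11 over the members and -0.02 over all genes tested. Of the MRPL genes 16 were lower, and of the MRPS genes 6 were lower and 3 higher. No member passed the threshold of the study, which 5.87% of all genes tested did, the largest value in size being -0.44. MRPL12 is an example of the lower members. Its FPKM was 141.4, 156.9 and 147.4 in untreated and 160, 164.7 and 154.1 in TPN libraries at 24 h, and 105.4, 104.3 and 108 in untreated and 89.7, 85.3 and 97.1 in TPN libraries at 144 h. MRPS6 went the other way, with 30.4, 31.7 and 30.0 FPKM against 27.7, 27.0 and 26.1 FPKM with TPN at 24 h, and 23.8, 26.6 and 21.8 FPKM against 25.2, 26.7 and 26.1 FPKM with TPN at 144 h.

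The symbol of 3 members does not tell where the protein sits. MRPS18A and MRPS30 are parts of the large subunit in spite of their names, and MRPS36 is now known as a subunit of the 2-oxoglutarate dehydrogenase complex. All 3 were lower in untreated spheroids at 144 h than at 24 h, by -0.36 ± 0.049, -0.22 ± 0.042 and -0.39 ± 0.073 (SE) on the log2 scale, although under the alternatives these came as near to 0 as -0.17 for MRPS18A and -0.22 for MRPS36, both still called. MRPS30 was not called after median-ratio scaling (-0.039), after quantile normalisation or after removal of trends with GC content and length. With TPN at 144 h, MRPS36 fell by 0.22 on the log2 scale with an adjusted p of 0.0189 in limma. MRPS18A and MRPS30 were not called, with -0.099 and -0.085 and adjusted p of 0.107 and 0.106 in limma. Under some alternatives each was called, with adjusted p down to 0.0199 and 0.0353 in limma. The value of MRPS18A ran from -0.14 to -0.042 and that of MRPS30 from -0.12 to -0.057. Without untreated 144 h replicate 3 or TPN 144 h replicate 2 or 3 the call of MRPS36 was lost, with an adjusted p of up to 0.0866.

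The genes that work with the mitoribosome were compared by list, beside 52.4% of all genes tested that were lower with time and 20.1% that were higher. Of 5 further mitoribosome proteins named otherwise, 4 fell with time. Of 28 assembly and rRNA modification factors 24 fell and 1 rose with time, with a median log2 fold change of -0.39. Of 22 genes that charge mitochondrial tRNAs 17 fell and 2 rose. This list holds 3 subunits of an amidotransferase (QRSL1, GATB and GATC) beside the aminoacyl-tRNA synthetases, and GARS1 and KARS1 also encode the cytosolic enzymes. Without these 5 genes, 14 of 17 fell and 1 rose, the other that rose being GARS1 (0.75). Of 16 translation factors 12 fell and 1 rose, and of 18 genes of mtDNA upkeep and transcription 14 fell. After median-ratio scaling, 3 of the 5 further proteins were lower and 1 higher, as were 17 and 1 of the assembly factors, 13 and 3 of the tRNA charging genes, 8 and 3 of the translation factors and 11 and 4 of the genes of mtDNA upkeep, where 33.7% of all genes tested were lower and 33.1% higher. TFAM, which packages and transcribes mitochondrial DNA, went from 79.0 ± 4.12 (SD, n = 3) to 51.6 ± 2.61 (SD, n = 3) FPKM. Of 9 upstream regulators of mitochondrial genes tested, 4 were lower with time and 1 higher, with a median of -0.062 that became 0.12 after median-ratio scaling, where 2 were lower and 4 higher. The one higher as deposited was PPARGC1A, a coactivator of mitochondrial biogenesis, which had 5.21, 4.62 and 5.20 FPKM in untreated 24 h and 10.12, 8.70 and 9.30 FPKM in untreated 144 h libraries. The groups were apart, with a log2 fold change of 0.89 ± 0.069 (SE) and an adjusted p of 6.62e-08 in limma.

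Oxidative phosphorylation subunits encoded in the nucleus, whose partners the mitoribosome makes, fell in 70 and rose in 5 of 81, with a median of -0.30. Of all genes tested, 52.4% were lower and 20.1% higher over time, with a median of -0.18. After median-ratio scaling 41 of these subunits were lower and 11 higher, to be read beside the shares of all genes given above for that scaling. Cytosolic ribosomal proteins went the opposite way, with 76 of 90 higher and 9 lower and a median of 0.35, and 80 higher and 5 lower after median-ratio scaling. Their share of all FPKM was 19.8% to 20.3% in untreated 24 h and 25.1% to 25.6% in untreated 144 h libraries. FPKM is relative within a library, so a larger share of some genes leaves a smaller share to others.

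At 144 h, TPN left 31 of the 81 oxidative phosphorylation subunits lower and 5 higher, and 15 of the 90 cytosolic ribosomal proteins lower and 6 higher, beside 28.3% of all genes tested lower and 24.2% higher. Of the 28 assembly factors 8 were lower and 2 higher, of the 22 tRNA charging genes 9 and 2 (7 and 2 of 17 without those 5), of the 16 translation factors 4 and 1, and of the 18 genes of mtDNA upkeep 4 and 4, while 1 of the 5 further mitoribosome proteins was higher. That one was DAP3, the GTP-binding protein of the small subunit, which rose from 58.5 ± 2.05 (SD, n = 3) to 66.7 ± 1.95 (SD, n = 3) FPKM, with a log2 fold change of 0.19 ± 0.044 (SE). MTERF4, needed for assembly of the large subunit, fell by 0.34 on the log2 scale, and MRRF, which recycles ribosomes, also fell by 0.34. TWNK, the helicase of mitochondrial DNA, rose by 0.29, and HARS2 and RARS2 rose by 0.21 and 0.23, while AARS2 and SARS2 both fell by 0.33. Of the regulators, MYC rose with TPN at both times, by 0.22 at 24 h and 0.14 at 144 h. At 144 h YY1 rose by 0.15 with an adjusted p of 0.00533 in limma, and NRF1 fell by 0.22.

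**Figure D5:**
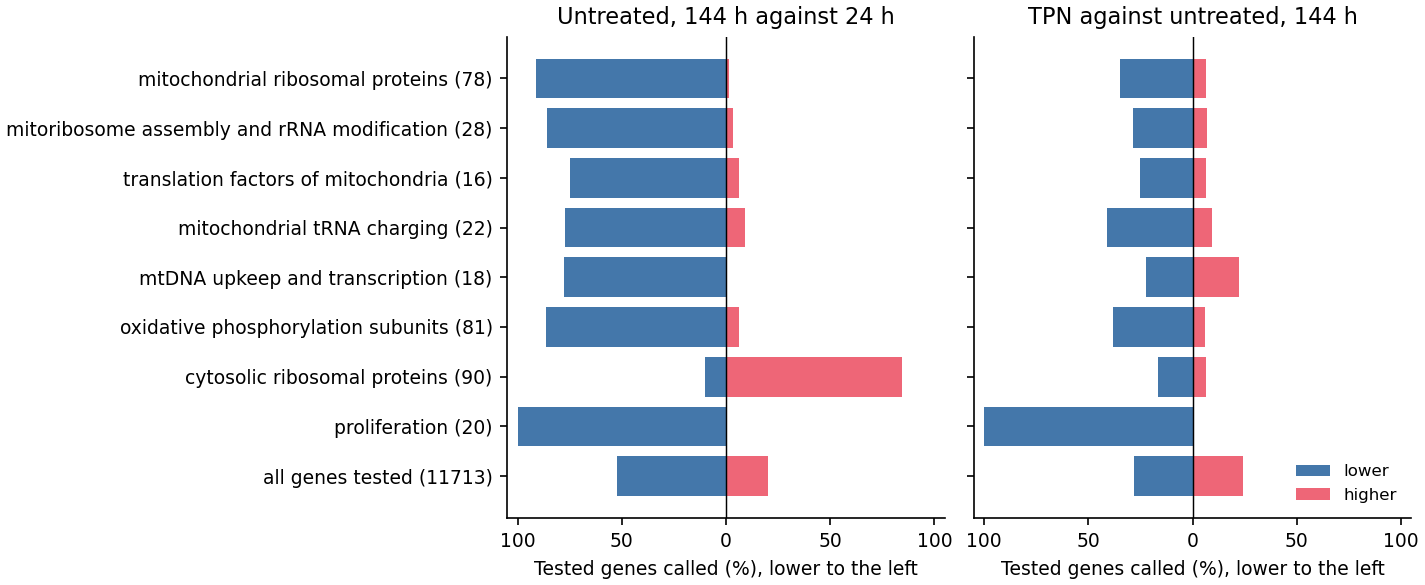
Share of the tested genes of each list that was called by limma (x axis, percent, lower to the left and higher to the right), with the number tested in brackets. Left, untreated 144 h against untreated 24 h, where mitochondrial ribosomal proteins (91.0% lower) and cytosolic ribosomal proteins (84.4% higher) lie on opposite sides. Right, TPN against untreated at 144 h, where mitochondrial ribosomal proteins (34.6% lower) lie near all genes (28.3% lower).

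Proliferation genes moved with both time and TPN. All 20 were lower at 144 h than at 24 h in untreated spheroids and all 20 were lower with TPN at 144 h, and 14 were lower with TPN at 24 h, beside 52.4%, 28.3% and 5.46% of all genes tested. Their summed FPKM was 2030 to 2050 in untreated 24 h, 1800 to 1830 in TPN 24 h, 1280 to 1310 in untreated 144 h and 875 to 908 in TPN 144 h libraries. TYMS, needed for DNA synthesis, had 179 ± 1.29, 157 ± 1.38, 111 ± 1.7 and 73.1 ± 2.85 FPKM (SD, n = 3) in the same order. Of 8 stellate markers tested, 7 were lower over time with a median log2 fold change of -1.96. The part of proliferation and of the cell types, hepatocyte markers included, in the changes of the members was not tested.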

How the data were processed

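RNA of 12 libraries of spheroids was sequenced, and the authors deposited FPKM values (fragments per kilobase of transcript, scaled to the mapped fragments of the library) estimated with RSEM. The submitters' processing notes name HISAT2 2.0.4, Bowtie2 2.2.5 and GRCh38.p13. The libraries were strand-specific, and the strand setting of the counting is not given in the sources used here. Of the table, 20 broken lines were left out, which left 16705 genes. The summed FPKM ranged from 561657 to 583722 per library. Steps between low FPKM values of 75 genes put the depth near 1.79e+07 fragments, but only 84.7% of these values lay within 0.15 of a whole number, so no count test was run.

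From there, log2(FPKM + 0.1) of the 11713 genes with a mean of at least 0.5 FPKM was fitted in limma 3.58.1 (R 4.3.3) with a trended prior and 4 groups of 3 libraries, with Benjamini-Hochberg adjustment over all 11713 genes. Genes were called at an adjusted p below 0.05. In simulated data for TPN at 144 h, 200 of 11713 genes were changed, 50 each by 0.2, 0.4, 0.6 and 1.0 on the log2 scale. Of each 50, 17, 41, 45 and 50 were called, with 10 false calls among the unchanged genes. In the data, 28.3% of all genes tested were lower and 24.2% higher at 144 h. With so many more calls, the simulated rates do not give the sensitivity in the data. The members and gene lists were chosen with earlier results of these data known. Named were, per comparison, the 4 members with the largest called change in each direction and all past the threshold of the study, then the 3 highest and the 3 lowest in level and MRPS18A, MRPS30 and MRPS36. From the other lists, genes past the threshold or with the 2 largest called changes in each direction at 144 h could be named. HNF4A, ACTA2 and the genes that describe the make-up of a list were named outside this rule. MRPS21, MRPL2, MRPL45 and the further members called in the interaction test were named after their values were seen. Alternatives covered the pseudocount, filter, scaling, GC content and length, prior, groups in the fit, a replicate block and each library left out.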

Additional observations from a re-analysis of the deposited data

Results flagged for a closer look

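The TPN effect on 25 members, 22 lower and 3 higher, differed between 24 h and 144 h in the interaction test of limma, beside 16.3% of all genes tested that were lower and 14.1% higher. The difference of the log2 fold changes (144 h minus 24 h) was 0.30 for MRPS6 (adjusted p = 0.0119), where TPN libraries lay below untreated libraries at 24 h (adjusted p = 0.051) and overlapped with them at 144 h. It was 0.19 for MRPS25 (adjusted p = 0.0499) and 0.17 for MRPS5 (adjusted p = 0.0292), both higher with TPN at 144 h. It was -0.44 for MRPL1 (adjusted p = 0.00634), -0.36 for MRPS9 (adjusted p = 0.00772), -0.33 for MRPL12 (adjusted p = 0.0022) and -0.32 for MRPL48 (adjusted p = 0.0134), all lower with TPN at 144 h. MRPS25 was not called when any of 10 of the 12 libraries was left out (all but TPN 24 h replicate 3 and TPN 144 h replicate 3), with adjusted p up to 0.116. MRPS5 was not called without untreated 24 h replicate 1 or 2, TPN 24 h replicate 2 or 3, untreated 144 h replicate 2 or TPN 144 h replicate 3, with adjusted p up to 0.0707. MRPS6, MRPL1, MRPS9, MRPL12 and MRPL48 kept their calls without each library. MRPS6 shares its span with SLC5A3 on the same strand in GENCODE v44, so reads may have been divided between them.

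The other 18 members were lower in this test. Kept without each library were the calls of MRPS24 (-0.27), MRPL35 (-0.27), MRPL30 (-0.25), MRPL32 (-0.24), MRPL2 (-0.23), MRPL45 (-0.23), MRPS35 (-0.22), MRPL53 (-0.22), MRPS26 (-0.18) and MRPS27 (-0.18), with adjusted p between 0.00177 and 0.0171. Lost without some single libraries were those of MRPL20 (-0.27), MRPS7 (-0.21), MRPL40 (-0.20), MRPL11 (-0.19), MRPL23 (-0.18), MRPL43 (-0.18), MRPL4 (-0.17) and MRPL28 (-0.15), with adjusted p up to 0.0953. Each of the 12 libraries ended between 2 and 7 of the 25 calls when it was left out. MRPL32 and MRPS35 were higher with TPN at 24 h and not called at 144 h, and MRPL23 was lower at both times.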

How the results depend on the processing

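In the comparison over time, 70 to 72 members were lower when each library was left out in turn, and the median of -0.42 became -0.25 after median-ratio scaling, -0.26 after quantile normalisation and -0.27 after removal of trends with GC content and length, with or without a replicate block. The members that were higher over time numbered 5 under median-ratio and quantile scaling and 3 with GC content and length removed, with or without the block. The counts at 24 h were small and moved. There, 4 members were higher with GC content and length removed, with or without the block, and 1 with no trended prior. At 24 h 2 were lower with a pseudocount of 1, with a mean of at least 5 FPKM, with the replicate block and with the block after GC and length removal, 3 with only the groups compared, and 0 with no trended prior or with GC content and length removed. At 144 h of TPN, 2 members were higher with no filter or no trended prior and 3 with equal totals or with GC content and length removed. With the threshold of the study the counts were 0, except for 11 lower over time, of which none passed it after median-ratio scaling or GC and length removal and 1 after quantile normalisation.

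With each library left out, members higher at 24 h ranged from 0 to 4 and lower from 0 to 2, and the median ranged from -0.0012 to 0.022. At 144 h, 2 to 6 were higher, and the median ranged from -0.097 to -0.054. For the interaction, 1 to 4 were higher, and the median ranged from -0.13 to -0.089. The sign at 24 h turned without untreated 24 h replicate 2 for MRPS18A (range -0.0099 to 0.059) and MRPS36 (range -0.10 to 0.026), neither of which was called. Across treatment within a time, correlations of same-numbered libraries lay between -0.083 and 0.10, and of differently numbered ones between -0.16 and 0.077. Across time within a treatment, they lay between -0.007 and 0.15 and between -0.16 and 0.071. These small values do not settle whether the replicate numbers pair the samples. The block moved no other count of members by over 1.5 times. For the loss or gain of single calls the cause was not tested. Depth was known only as an estimate, 3 libraries per group limit the precision, and the exact permutation test cannot go below 0.1.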
